A study of Mus musculus with 24 samples.

Results

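The miRNAs described here are mouse miRNAs whose hairpins are made without Drosha, the nuclease of the Microprocessor: mmu-miR-320, mmu-miR-484 and the mirtrons mmu-miR-877, mmu-miR-702 and mmu-miR-1224. They were chosen by name from the table of raw counts, where they hold 8 of 1978 rows: mmu-miR-320-3p, mmu-miR-320-5p, mmu-miR-484, mmu-miR-877-5p, mmu-miR-877-3p, mmu-miR-702-3p, mmu-miR-702-5p and mmu-miR-1224-5p. Small RNA was sequenced from spermatocytes in pachynema or diplonema (SP) and from round spermatids (RS) of Ago413+/+, Ago413+/- and Ago413-/- males, with 4 libraries in each of the 6 groups. The males were C57BL/6J and 10 to 15 weeks old, and no treatment was given in any group. The testes of 2 to 5 mice went into each preparation, and fractions judged more than 70% pure were pooled, so a library is an enriched population from pooled animals and not a pure cell type. The Ago413 allele is a constitutive deletion, made with Sox2-cre, that removes Ago1 and parts of Ago3 and Ago4, so every cell of an Ago413-/- male carries it, somatic cells of the testis included, while Ago2 is intact. Loss of these transcripts cannot be read from miRNA counts and was not checked here. Nothing in the labels says that the 4 libraries of a group came from separate sets of animals, so the p-values measure the spread between libraries, part of which may be technical.

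Most miRNA hairpins are cut from a longer primary transcript by Drosha and DGCR8, exported, trimmed by Dicer and loaded into an Argonaute protein. The miRNAs grouped here bypass the first cut: the ends of the miR-320 and miR-484 hairpin precursors are thought to be set by transcription, with a cap on the 5′ end, and a mirtron is a short intron that the spliceosome excises and debranching turns into a hairpin. All of them still need Dicer, and a mature strand is stable mainly while an Argonaute holds it.

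Mature sequences of 6 of the 8 members were taken from RefSeq (build GRCm38.p6). They are printed 5′ to 3′ with bases 2 to 8, the seed that pairs with targets, in capitals, because the seeds show that the members are not a sequence family.
mmu-miR-484: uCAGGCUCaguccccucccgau
mmu-miR-877-5p: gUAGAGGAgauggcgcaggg
mmu-miR-877-3p: uGUCCUCUucucccuccuccca
mmu-miR-702-5p: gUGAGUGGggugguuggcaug
mmu-miR-702-3p: uGCCCACCcuuuaccccgcucc
mmu-miR-1224-5p: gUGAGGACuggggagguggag
None of these 6 members shared its seed with another. Among the 1679 miRNAs of the count table with a sequence, only mmu-miR-3102-5p had a member's seed, that of mmu-miR-702-5p. Their GC content ran from 59.1% in mmu-miR-877-3p to 68.2% in mmu-miR-702-3p, where the median of the 1679 mature miRNAs with a sequence was 52.2% and that of the 373 tested miRNAs with a sequence was 45.8%. The 5p arms of the mirtrons all open with GU, the first bases of an intron.

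The hairpin genes lie in different kinds of places. Mir320 (chr14:70443510-70443591, plus strand) overlapped no annotated gene and lay 63 bases from the start of Polr3d, which encodes a subunit of RNA polymerase III and is read from the opposite strand. Mir484 (chr16:14159626-14159692, plus strand) overlapped an untranslated exon of Marf1, a gene of the opposite strand, and its mature strand lies near the 5′ end of the hairpin. Mir877 (chr17:35960730-35960814, minus strand) was identical in position to an intron of 85 bases in Abcf1, and Mir1224 (chr16:20604452-20604536, plus strand) to an intron of 85 bases in Vwa5b2. Mir702 (chr5:136991433-136991541, plus strand) reached across the 5′ splice site of a 102-base intron of Plod3 (chr5:136991442-136991543), reaching 9 bases into the preceding exon. The hairpins of the pair that fill their introns are shown with the annotated mature arms in capitals, because both begin with GU and end with AG, as introns do.
Mir877: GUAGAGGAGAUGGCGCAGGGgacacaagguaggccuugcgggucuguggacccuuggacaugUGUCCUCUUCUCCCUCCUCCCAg
Mir1224: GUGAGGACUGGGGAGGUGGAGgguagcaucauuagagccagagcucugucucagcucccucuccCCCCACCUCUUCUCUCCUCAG
The 5p arms of mmu-miR-877, mmu-miR-1224 and mmu-miR-702 each started at base 1 of the intron, while mmu-miR-877-3p ended 1 base and mmu-miR-702-3p 2 bases before the last intron base. Hairpins with both ends within 10 bases of the ends of an intron on their strand were rare in the table: 44 of 1581 miRNAs with an annotated hairpin, from 23 hairpins, had this geometry, and 5 of the 44 were members.

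**Figure D1:**
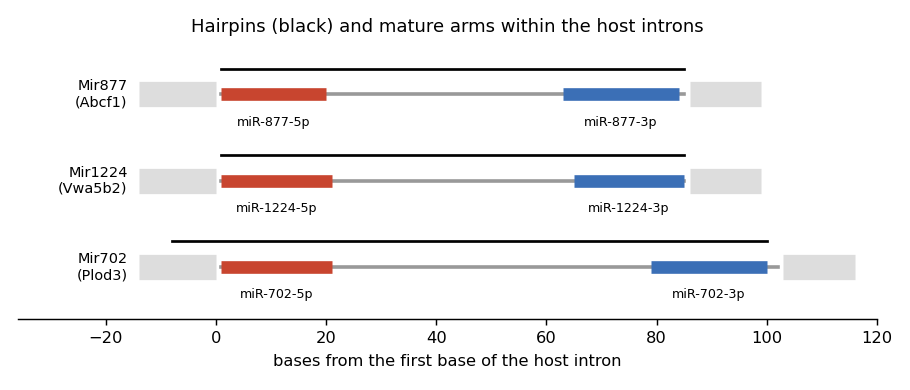
Position of the Mir877, Mir1224 and Mir702 hairpins (black lines) and their mature arms (red, 5p; blue, 3p) in bases from the first base of the host intron (grey line; grey blocks, flanking exons). Each 5p arm starts at base 1, and only the Mir702 hairpin extends into the exon. The miR-1224-3p arm is drawn from the annotation and is not a member.

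The libraries held 182904 to 1072637 miRNA counts, and the smallest, replicate 2 of Ago413-/- spermatocytes, stood apart from the other libraries of its group. Chi-square per degree of freedom between it and its 3 group mates was 177 to 203, against 25.2 to 41.7 among those 3. Replicate 4 of Ago413+/- spermatocytes also stood apart, at 146 to 260 against 29.2 to 81.9 among its group mates. Values without these libraries are given beside the results that they move. As a check of cell identity, the summed level of mmu-miR-34b-5p, mmu-miR-34c-5p and mmu-miR-449a-5p, which are abundant in meiotic and later germ cells, was 18752 CPM (counts per 1e+06 counts of a library, scaled by TMM, a library size correction of edgeR) in replicate 2 of Ago413-/- spermatocytes and 36488 to 186145 CPM in the other libraries. Markers of other testis cells were present in every group. The 3 blood miRNAs summed to 21.9 to 2869 CPM in SP and 49.2 to 4813 CPM in RS libraries, the pair of endothelial miRNAs to 260 to 2607 and 511 to 5858 CPM, and the pair of peritubular miRNAs to 1051 to 2706 and 1060 to 8555 CPM.

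Of the 8 members, 4 reached 10 counts in at least 3 libraries. mmu-miR-320-3p, with 4357 counts in all, and mmu-miR-484, with 2092, reached 10 counts in each of the 24 libraries. mmu-miR-877-3p did so in 10 libraries (268 counts in all, 4 SP and 6 RS libraries) and mmu-miR-877-5p in 6 (211 counts, 2 SP and 4 RS libraries), so that mmu-miR-877-5p was tested in RS and over all libraries but not in SP alone. mmu-miR-702-3p and mmu-miR-702-5p had 4 counts each, never more than 1 in a library, and mmu-miR-1224-5p had 8 counts, 4 of them in replicate 2 of Ago413-/- spermatocytes. mmu-miR-320-5p had 0 counts in every library, which allows a level of up to 2.80 to 16.4 CPM before TMM (3 counts of a library's total, counting error only). The members together took 0.029% to 0.072% of the miRNA counts of a library, except in replicate 2 of Ago413-/- spermatocytes, where they took 0.355%.

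Each mature miRNA was counted on its own, and its levels are given as TMM-scaled CPM. In wild type SP, mmu-miR-320-3p ranked 155 of the 947 miRNAs with a count by mean level, at 271 ± 92.3 CPM (SD, n = 4), and mmu-miR-484 ranked 185, at 182 ± 39.2 CPM. In wild type RS the ranks were 131 and 177 of 941, at 389 ± 114 and 193 ± 38.3 CPM. The arms of mmu-miR-877 were far lower: mmu-miR-877-5p stood at 11.5 ± 8.48 CPM in wild type SP and 29.8 ± 25.8 CPM in RS, and mmu-miR-877-3p at 12.1 ± 6.05 and 25.7 ± 24.3 CPM. By rank, mmu-miR-877-5p and mmu-miR-877-3p were 417 and 412 of 947 in wild type SP and 327 and 346 of 941 in wild type RS, below mmu-miR-320-3p and mmu-miR-484 in both.

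The first comparison asked how the members differ in spermatocytes that lack the 3 Argonautes. No member passed the test: by edgeR, 0 of the 3 members tested in SP were called (adjusted p under 0.05 and a fold change of at least 2, that is 1 on the log2 scale), where 18 of 404 miRNAs, 4.46%, were called. The members did not move one way: mmu-miR-484 was lower in Ago413-/- SP, while mmu-miR-320-3p was higher, mostly through replicate 2. In enriched fractions, fewer cells of a type and less of a miRNA per cell cannot be told apart.

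mmu-miR-484 was measured at 229, 182, 181 and 133 CPM in the 4 wild type SP libraries. In Ago413-/- SP it was at 117, 73.3, 77.9 and 52.9 CPM. The highest null library lay below the lowest wild type library, on this scale and on CPM without TMM. On TMM CPM, 51 of 404 miRNAs, 12.6%, were lower in every null library than in any wild type library. No share was taken on CPM without TMM in SP. The log2 fold change was −1.16 (SE 0.39) with an edgeR adjusted p of 0.0873, which misses the threshold, and the adjusted p ran from 0.0570 to 0.167 when each library was left out in turn (−1.12 and 0.121 without replicate 2). DESeq2, run on the same counts, called it (−1.18, adjusted p = 0.0354), among 61 of 404 miRNAs called, where edgeR called 18. The null values rest on few reads, 45, 11, 21 and 11 counts, against 42 to 155 counts in wild type. Heterozygous SP, at 113, 267, 172 and 112 CPM, overlapped wild type SP.

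mmu-miR-320-3p stood at 244, 277, 393 and 172 CPM in wild type SP. In Ago413-/- SP it stood at 380.2, 4139.6, 523 and 375 CPM. Replicates 1 and 4 lie within the wild type range, replicate 3 lies above it, and replicate 2 lies far above every other library of the study. The log2 fold change was 2.33 (SE 0.74, edgeR adjusted p = 0.0859) over all 4 null libraries and 0.62 (SE 0.43, adjusted p = 0.434) without replicate 2. Heterozygous SP were at 163, 176, 332 and 628 CPM, the highest of them being replicate 4, and the log2 difference from wild type was 0.27 (SE 0.71) with replicate 4 and −0.19 without it.

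mmu-miR-877-3p, from the Abcf1 intron, was at 4.99, 15.1, 18.7 and 9.53 CPM in wild type SP and at 15.6, 86.7, 14.8 and 9.63 CPM in Ago413-/- SP. Its groups overlapped, and only replicate 2 lay above the wild type range. The log2 fold change was 1.16 (SE 0.72, edgeR adjusted p = 0.337) with that library and 0.10 (SE 0.63) without it. mmu-miR-877-5p, from the same hairpin, was at 9.97, 23.3, 9.36 and 3.18 CPM in wild type SP and at 18.2, 6.67, 11.1 and 0 CPM in Ago413-/- SP, where 0 allows up to 12.6 CPM before TMM. It was not raised in replicate 2, unlike the 3p arm.

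**Figure D2:**
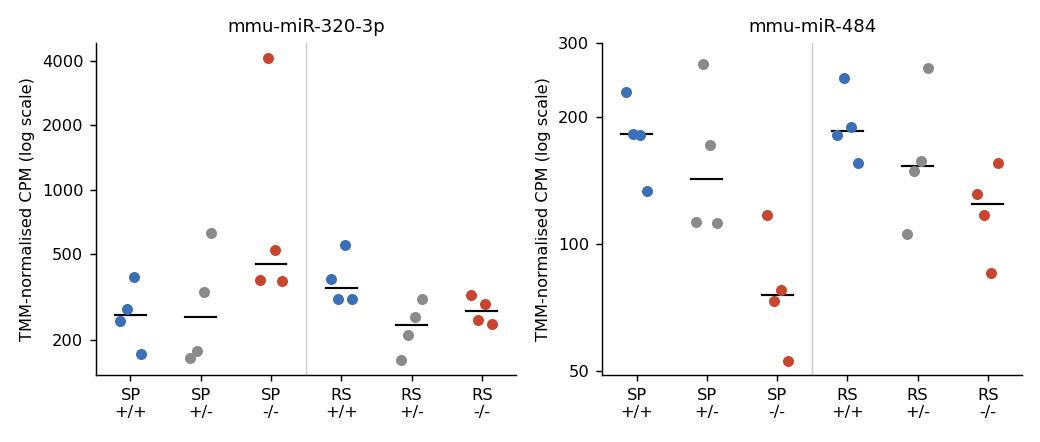
TMM-normalised CPM (log axes) of mmu-miR-320-3p and mmu-miR-484 in each of the 24 libraries, by cell type (SP, spermatocytes; RS, round spermatids) and Ago413 genotype; black bars are medians of 4 libraries. For mmu-miR-484 the 4 Ago413-/- SP libraries (52.9 to 117 CPM) lie below the 4 wild type SP libraries (133 to 229 CPM), and for mmu-miR-320-3p 1 library, at 4139.6 CPM, lies apart from the rest.

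Replicate 2 of Ago413-/- SP was set against the median of the other 3 null SP libraries, miRNA by miRNA, over the 404 tested miRNAs with 5 CPM added. mmu-miR-320-3p had the second highest ratio, 3.43 on the log2 scale, and mmu-miR-877-3p ranked 17 at 2.21. mmu-miR-484 ranked 148 at −0.08, where the median miRNA was at −0.69. Raised ratios were not particular to the members: 21 miRNAs, 5.2%, were at 2 or more, mmu-miR-5126 ranked first at 4.55, and mmu-let-7c-5p, an abundant let-7 family miRNA, ranked 7 at 2.52. The count behind the value of mmu-miR-320-3p was 621, or 3395 CPM before TMM scaling with an exact 95% binomial interval of 3134 to 3673 CPM for counting error. This library had the lowest summed level of germ cell miRNAs in the study and, at 460 CPM of blood and 260 CPM of endothelial miRNAs, the lowest levels of both in its group.

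**Figure D3:**
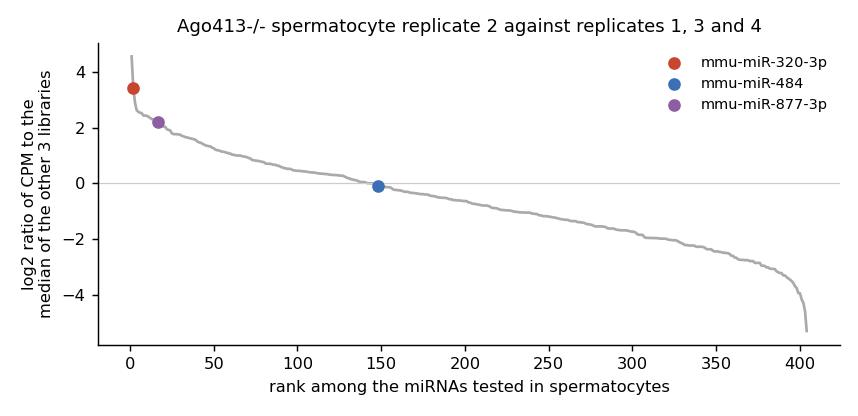
log2 ratio of the CPM of each of the 404 tested miRNAs in Ago413-/- SP replicate 2 to the median of replicates 1, 3 and 4 (5 CPM added), ordered from highest to lowest. mmu-miR-320-3p (rank 2) and mmu-miR-877-3p (rank 17) lie at the high end, and mmu-miR-484 (rank 148) does not.

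In round spermatids no member passed the test between Ago413-/- and Ago413+/+. By edgeR, 0 of the 4 members tested were called, where 69 of 426 miRNAs, 16.2%, were called. All 4 log2 fold changes were below 0, as were those of 180 of all 426 miRNAs (42.3%). The arms of mmu-miR-877 come from the same hairpin, and mmu-miR-877-3p, at −0.01, was at 0.53 without replicate 2 of wild type RS. The median of the 4 was −0.42, where the median of all 426 miRNAs was 0.13 with TMM and −0.09 on plain library totals. The 69 calls split into 32 higher and 37 lower with TMM, and the 68 on library totals into 16 and 52.

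mmu-miR-484 was at 181, 247, 189.7 and 156 CPM in wild type RS and at 131, 117, 85.2 and 155 CPM in Ago413-/- RS. The groups are separated by less than 1 CPM, and on CPM without TMM they overlap, because replicate 4 of the null is then at 172 CPM and the lowest wild type library at 158 CPM. On TMM CPM, 66 of 426 miRNAs, 15.5%, were lower in every null library. The log2 fold change was −0.53 (SE 0.29, edgeR adjusted p = 0.205), smaller in size than that in SP, and the difference between the cell types was not past the threshold (0.49, SE 0.48, adjusted p = 0.605).

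mmu-miR-320-3p was at 383, 311, 552 and 311 CPM in wild type RS and at 323, 248, 294 and 237 CPM in Ago413-/- RS. These groups overlapped by the highest null library on TMM CPM and did not overlap without TMM, where the null libraries were at 225 to 297 CPM and the wild type libraries at 315 to 474 CPM. Without TMM, 68 of 426 miRNAs, 16%, were lower in every null library. The log2 fold change was −0.32 (SE 0.25, edgeR adjusted p = 0.369). mmu-miR-877-5p, at 15.0, 25.1, 19.4 and 0 CPM in Ago413-/- RS, had a log2 fold change of −0.92 (SE 0.71, edgeR adjusted p = 0.359). mmu-miR-877-3p, at 23.3, 22.3, 34.9 and 19.4 CPM, had one of −0.01 (SE 0.58, edgeR adjusted p = 0.996). The groups overlapped for both arms, and the null values of the 3p arm lay between those of the high and low wild type libraries.

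Some markers of other cells differed between these RS groups. Blood mmu-miR-451a and mmu-miR-486a-5p (log2 fold changes 3.26 and 2.11, edgeR adjusted p = 0.0299 and 0.0305) and endothelial mmu-miR-126a-3p (1.63, adjusted p = 0.0120) were higher in Ago413-/- RS. Endothelial mmu-miR-126a-5p (1.48, edgeR adjusted p = 0.0697) was not called. Peritubular mmu-miR-143-3p (−0.14, adjusted p = 0.887) and mmu-miR-145a-5p (−1.74, adjusted p = 0.204) were lower and not called. Germ cell mmu-miR-449a-5p (0.98, adjusted p = 0.0110) was higher but under the fold change threshold, and mmu-miR-34b-5p (0.16) and mmu-miR-34c-5p (0.21) were not called. Replicate 4 of null RS held much of the blood difference, with a summed level of 4813 CPM against 103 to 612 CPM in the other null RS libraries and 49.2 to 501 CPM in wild type RS. Without it mmu-miR-451a was at 1.33 and mmu-miR-486a-5p at 0.52 (edgeR adjusted p = 0.280 and 0.401), and both calls were also lost without replicate 1, 2 or 4 of wild type RS (adjusted p = 0.0683 to 0.102). The call of mmu-miR-126a-3p was lost without replicate 1 of wild type RS (1.19, adjusted p = 0.0721) or of null RS (1.21, adjusted p = 0.0658). In SP, none of the tested blood, endothelial, peritubular or germ cell markers was called between null and wild type. Germ cell mmu-miR-34b-5p was at −0.79, mmu-miR-34c-5p at −0.78 and mmu-miR-449a-5p at −0.09 (edgeR adjusted p = 0.314, 0.310 and 0.919). The other tested markers lay between −0.42 and 0.31. The median summed germ cell level was 60171 CPM in null SP and 92686 CPM in wild type SP. The part of the markers in the values of the members was not tested.

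**Figure D4:**
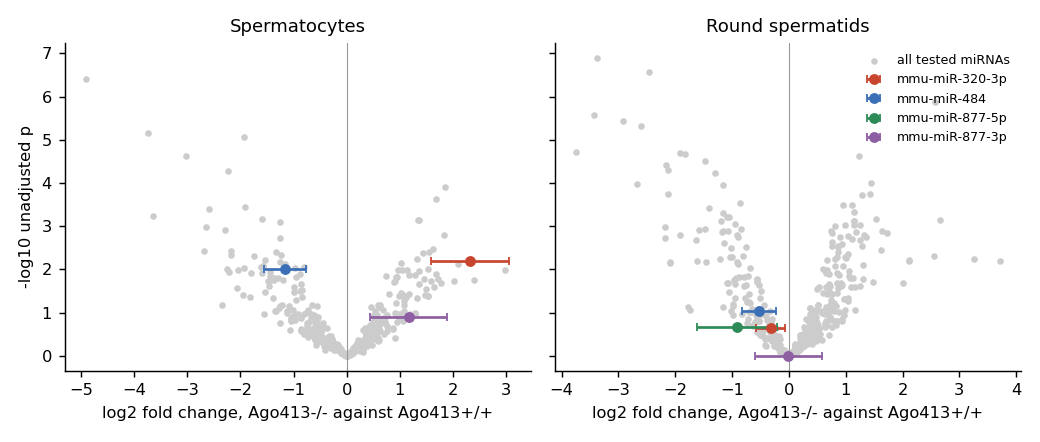
log2 fold change of Ago413-/- against Ago413+/+ (x axis) and −log10 of the unadjusted edgeR p (y axis) for the 404 miRNAs tested in SP and the 426 tested in RS (grey), with the tested members in colour and bars of 1 SE. In SP mmu-miR-320-3p (2.33) and mmu-miR-484 (−1.16) lie on opposite sides of 0, and in RS all 4 members lie between −0.92 and −0.01.

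Deletion of 1 copy of the alleles was examined in the same fits, which share the wild type libraries with the null comparison. By edgeR no miRNA was called in Ago413+/- SP (0 of 404, 0%; 13 at an unadjusted p under 0.05) or in Ago413+/- RS (0 of 426, 0%; 68 at an unadjusted p under 0.05), and hence no member; DESeq2 called 0 in SP and 6 in RS, none of them a member. In Ago413+/- RS, mmu-miR-320-3p was at 160.02, 211, 256 and 308 CPM, below the 311 CPM of the lowest wild type library, and without TMM the groups overlapped; 11 of 426 miRNAs, 2.58%, were lower in every heterozygous library on TMM CPM. Its log2 fold change was −0.64 (SE 0.25, unadjusted p = 0.0222, edgeR adjusted p = 0.270). mmu-miR-484, at 106, 149, 157 and 261 CPM, overlapped wild type RS. mmu-miR-877-5p was at 3.30, 11.7, 12.7 and 20.1 CPM in Ago413+/- RS and at 59.1, 43.9, 6.77 and 9.60 CPM in wild type RS. The groups overlapped, and only replicates 1 and 2 of wild type RS lay above the heterozygous range. Its log2 fold change of −1.30 (SE 0.72, edgeR adjusted p = 0.402) ranked 6 from the lowest of the 426. With each library left out in turn it ran from −1.75 to −0.95, the latter without replicate 1 of wild type RS. The 4 members, both arms of mmu-miR-877 among them, had a median log2 fold change of −0.74 in Ago413+/- RS, where that of all miRNAs was 0.00. In Ago413+/- SP the median of the 3 tested members was 0.27 (0.13 without replicate 4) and that of all miRNAs 0.03 (0.058).

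The passage from spermatocyte to round spermatid was compared within each genotype over all 24 libraries. In the paper's protocol a gradient separates the fractions of a germ cell suspension, so same-numbered SP and RS libraries may share animals. The labels do not say whether they do. The main fit, also used for the null difference between cell types below, treats all libraries as separate. In wild type no miRNA was called by edgeR (0 of 450, 0%; 10 at an unadjusted p under 0.05) nor by DESeq2. The arms of mmu-miR-877 nevertheless had some of the highest fitted differences: mmu-miR-877-5p, at 1.31 on the log2 scale (SE 0.68, adjusted p = 0.996), ranked 449 and mmu-miR-877-3p, at 1.12 (SE 0.68, adjusted p = 0.996), ranked 445 from the lowest of the 450. Replicates 1 and 2 carried this difference. mmu-miR-877-5p was at 59.1, 43.9, 6.77 and 9.60 CPM in the 4 wild type RS libraries, and mmu-miR-877-3p at 36.7, 53.9, 0 and 12 CPM, so that replicates 1 and 2 were high for both arms and replicates 3 and 4 lay within the range of wild type SP or below it. In the same comparison mmu-miR-320-3p differed by 0.51 (SE 0.57) and mmu-miR-484 by 0.09 (SE 0.32), with overlapping groups for both.

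In Ago413+/- again no miRNA was called between RS and SP (0 of 450, 0%; 15 at an unadjusted p under 0.05; 0 by DESeq2). The 4 members lay between −0.47 (mmu-miR-320-3p, SE 0.57) and 0.14 (mmu-miR-877-5p, SE 0.77). Without replicate 4 of Ago413+/- SP the value of mmu-miR-320-3p was 0.04.

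In Ago413-/-, mmu-miR-320-3p was lower in RS than in SP (log2 fold change −2.28, SE 0.59, edgeR adjusted p = 0.0281). By edgeR it was the only member called in any comparison, among 22 of 450 miRNAs, 4.89%. The call rests on replicate 2 of SP: without it the log2 difference was −0.47 (SE 0.36, adjusted p = 0.455). It was also lost without any 1 of the 4 RS null libraries (−2.37 to −2.22, adjusted p = 0.0592 to 0.0964), in a fit of the null libraries alone (−2.31, adjusted p = 0.149) and with a replicate block (−1.33, adjusted p = 0.0921). mmu-miR-484 went the other way, at 0.58 (SE 0.35, adjusted p = 0.297), and the arms of mmu-miR-877 were at 0.52 (SE 0.85) for 5p and −0.14 (SE 0.72) for 3p, the latter at 1.02 without replicate 2 of SP.

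The test of whether the null difference itself differs between the cell types called no miRNA (0 of 450, 0%; 55 at an unadjusted p under 0.05; 0 by DESeq2). mmu-miR-320-3p had the lowest value of all 450, −2.79 on the log2 scale (SE 0.81, unadjusted p = 0.00200, edgeR adjusted p = 0.225), and stood at −0.91 (SE 0.49) without replicate 2 of the Ago413-/- SP libraries. mmu-miR-877-3p, at −1.26 (SE 0.99), was at −0.06 without it. The order of the groups by median level was, for mmu-miR-320-3p, null SP (451 CPM), wild type RS (347), null RS (271), wild type SP (261), heterozygous SP (254) and heterozygous RS (233). For mmu-miR-484 it was wild type RS (186 CPM), wild type SP (182), heterozygous RS (153), heterozygous SP (142), null RS (124) and null SP (75.6). The ranges of neighbours in both orders overlapped.

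The counts of the arms show which strand of a hairpin was sequenced. miR-320 gave its 3p arm alone, 4357 counts against 0 of the 5p arm, and the exact 95% upper bound on the 5p share is 0.0846%. miR-877 gave both, 211 counts of the 5p arm and 268 of the 3p arm, so that the 5p arm had 44.1% of the counts (exact 95% interval 39.5% to 48.6%). The 5p arm was ahead in 7 libraries and the 3p arm in 16. By group the 5p share was 49.2% in wild type SP, 39.2% in heterozygous SP and 30.6% in null SP, and 50%, 45.2% and 36.3% in the RS groups in the same order. Without the libraries that stand apart, the SP shares lay nearer that of wild type. Null SP was at 45.5% (10 of 22 counts, exact 95% interval 24.4% to 67.8%) without replicate 2. Heterozygous SP was at 47.4% (18 of 38 counts, 31.0% to 64.2%) without replicate 4. The cause of the lower shares was not tested. The exact 95% intervals of the null groups, 16.3% to 48.1% in SP and 26.4% to 47.0% in RS, overlapped those of wild type, 36.6% to 61.9% and 42.3% to 57.7%. These intervals pool libraries and cover counting error only; with as few as 2 counts of both arms in a library, no test over libraries was made. miR-702 gave 4 counts of each arm.

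**Figure D5:**
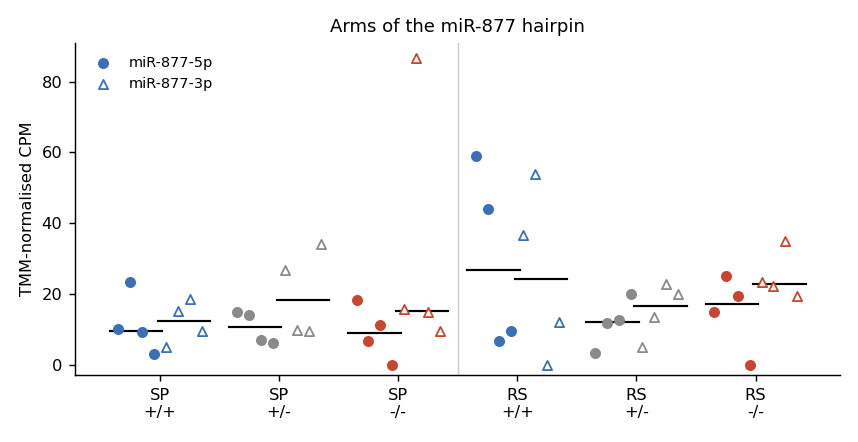
TMM-normalised CPM of mmu-miR-877-5p (filled circles) and mmu-miR-877-3p (open triangles) in the 24 libraries, by cell type and Ago413 genotype (blue, +/+; grey, +/-; red, -/-); black bars are medians of 4 libraries. Wild type RS replicates 1 and 2 are high for both arms (36.7 to 59.1 CPM), while null SP replicate 2 is high for the 3p arm alone (86.7 CPM).

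Across the 24 libraries Pearson's r between tested members on the log2 scale lay between −0.36 and 0.42. It was 0.40 between the arms of mmu-miR-877 (0.52 without replicate 2 of null SP), 0.41 between mmu-miR-484 and mmu-miR-877-5p (0.40 without it), 0.42 between mmu-miR-320-3p and mmu-miR-877-3p (0.06 without it) and −0.36 between mmu-miR-320-3p and mmu-miR-484 (−0.15 without it). Among miRNAs with a mean of at least 50 CPM, those most like mmu-miR-320-3p were mmu-miR-423-5p (r = 0.90), mmu-miR-1198-5p (0.88) and mmu-let-7d-5p (0.85), at 0.75, 0.83 and 0.84 without that library. Those most like mmu-miR-484 were mmu-miR-871-5p (0.74), mmu-miR-532-5p (0.70) and mmu-miR-374b-5p (0.69), at 0.73, 0.65 and 0.65 without that library. mmu-miR-877-5p was most like mmu-miR-129-2-3p (0.71), mmu-miR-342-3p (0.68) and mmu-miR-351-5p (0.61), at 0.71, 0.68 and 0.62 without it. mmu-miR-877-3p was most like mmu-miR-204-5p (0.73), mmu-miR-125b-5p (0.71) and mmu-let-7b-5p (0.71), at 0.65, 0.63 and 0.60 without it. These are descriptions over 24 libraries whose points share depth, cell purity and genotype, taken as the highest of 265 or 266 candidates.

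Other miRNAs described as made without the Microprocessor, miR-1981, miR-1982, miR-1983 and miR-1839, hold 7 rows, of which 5 were tested. Only mmu-miR-1983, described as deriving from a tRNA transcript, was called, in Ago413-/- RS (log2 fold change −1.63, SE 0.45, edgeR adjusted p = 0.0147), at 2.16 to 15.0 CPM against 26.5 to 37.2 CPM in wild type RS. In Ago413-/- SP it was lower by a like amount without passing the test (−1.94, SE 0.65, adjusted p = 0.0873). The median of these 5 was 0.08 in null SP and −0.48 in null RS, beside 1.16 over 3 members and −0.42 over 4. Without replicate 2 of null SP the SP medians were −0.048 over these 5 and 0.10 over the 3 members. Apart from the members, 39 miRNAs had the geometry of a mirtron, and only 2, the arms of mmu-miR-1981, had enough counts to be tested. These arms are also among the 5 tested above, and neither was called in any comparison.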

How the data were processed

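The authors trimmed the reads of 24 small RNA libraries with Trim Galore, counted mature miRNAs of miRBase (mouse) with the miRDeep2 quantifier and deposited raw counts of 1978 miRNAs, without normalization. All count columns were used. Library totals were 182904 to 1072637 counts, and intervals and floors (3 counts) cover counting error only.

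miRNAs with at least 10 counts in 3 libraries of a fit were tested with edgeR 4.0.16 (R 4.3.3) by its quasi-likelihood test with TMM scaling. Genotypes were compared within each cell type (3 genotypes, 4 libraries each), and cell types and the interaction over 24 libraries. p-values were adjusted by the Benjamini-Hochberg method over all miRNAs of a fit. Calls needed a log2 fold change of at least 1 in size and an adjusted p under 0.05 (interaction: the p alone). DESeq2 1.42.0, other scalings and filters, a replicate block and leaving out each library were alternatives. The code recovered known changes in simulated counts, which had a common spread and no library that stands apart. The simulation says nothing about the effect of such a library. All 8 members are named. The 3 most correlated miRNAs of each tested member are named too. From other lists, called miRNAs are named, along with mmu-miR-1981, mmu-miR-5126 and mmu-let-7c-5p, which were chosen after their values were seen. The members and lists were chosen with earlier results of these data known. Positions and sequences are from GENCODE and RefSeq (GRCm38.p6).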

Additional observations from a re-analysis of the deposited data

Results flagged for a closer look

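Among the 4 tested members in the 6 groups, 24 sets of 4 libraries were screened for a library far from its group mates (Dixon's test at 95%), and 2 were flagged. The nominal number by chance is about 1.2, but the sets share libraries and CPM was not put on a log scale, so it is only a rough guide. Both flags were in replicate 2 of Ago413-/- spermatocytes: mmu-miR-320-3p at 4139.59 CPM, with 375 to 523 CPM in its group mates, and mmu-miR-877-3p at 86.7 CPM (13 counts), with 9.63 to 15.6 CPM in its group mates. The same library had 11 counts of mmu-miR-484 and 1 of mmu-miR-877-5p, which were not flagged, and 4 of the 8 counts of mmu-miR-1224-5p in the study.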

How the results depend on the processing

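Of the counts of called members, the null difference in SP (0) became 1 with DESeq2 (mmu-miR-484, among 61 of 404 miRNAs called). It became 1 without a filter on low counts (mmu-miR-320-3p, 2.17, edgeR adjusted p = 0.000173, among 55 of 1059 called). The interaction (0) became 1 without the filter (mmu-miR-320-3p, −2.61, edgeR adjusted p = 0.000579). Both unfiltered fits hold replicate 2 of Ago413-/- SP and were not repeated without it. With the filter, leaving that library out gave 0.62 and −0.91 for mmu-miR-320-3p. The difference between RS and SP in the null (1) became 0 in a fit of the null groups alone, 0 with the replicate block, and 0 to 1 when 1 library was left out (0 without SP replicate 2 or any RS null library). DESeq2 gave mmu-miR-320-3p no adjusted p in 6 of the 8 comparisons, this one included, so no DESeq2 count is given there. The other 57 counts under other settings and 67 with a library left out were unchanged.

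Directions turned for mmu-miR-877-3p with the replicate block (null RS 0.13; RS against SP in the null 0.091), for mmu-miR-484 in RS against SP on library totals (wild type −0.036, heterozygous −0.040), and in the heterozygous comparison also with DESeq2 (−0.025), RLE scaling (−0.020) and only the groups compared (−0.077). Leaving out 1 library gave ranges across 0 for mmu-miR-877-3p in null RS (−0.41 to 0.53), mmu-miR-320-3p (−0.19 to 0.53) and mmu-miR-484 (−0.54 to 0.13) in heterozygous SP, mmu-miR-484 in heterozygous RS (−0.47 to 0.019), and, for RS against SP, mmu-miR-484 in wild type (−0.10 to 0.22), mmu-miR-320-3p (−0.69 to 0.039), mmu-miR-484 (−0.28 to 0.36), mmu-miR-877-5p (−0.26 to 0.40) and mmu-miR-877-3p (−0.59 to 0.015) in the heterozygote and mmu-miR-877-3p in the null (−0.40 to 1.02). The cause was not tested.

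Over all miRNAs, the 18 calls in null SP became 61 with DESeq2 and 55 without a filter, the 69 in null RS 42 with 10 counts required in every library, and the 22 between RS and SP in the null 43 without a filter, 2 with only these groups and 1 to 62 with a library left out. Comparisons with 0 calls had up to 8 under another setting. Same-numbered libraries deviated together in part. For wild type and null SP, r was −0.12 to 0.34 with 3 of 4 libraries closest to their own number. Between SP and RS, which may share a preparation, r was −0.16 to 0.37 in wild type (2 of 4 closest). It was 0.024 to 0.42 in the heterozygote (1 of 4) and −0.15 to 0.28 in the null (1 of 4). In no pair of groups were all 4 above 0.1 and the labels name no shared animals, so the replicate block was kept as an alternative. Leaving out libraries for the markers, mmu-miR-1983, medians and arm shares was chosen after seeing the data; mmu-miR-1983 stayed called (adjusted p = 0.00995 to 0.0457). The planned arm share test gave no value: the 5p share of miR-320 was 0 throughout, and miR-877 and miR-702 were under 50, and under 10, counts in some library. Depth limits mmu-miR-877, mmu-miR-702 and mmu-miR-1224 most.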
